A study of Rattus norvegicus with 56 samples.

Results

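The MHC class I antigen presentation genes were followed in the hippocampus and the parietal cortex of 24 male Long-Evans rats. They were taken from a list of 7 symbols, namely B2m, Tap1, Tap2, Tapbp, Psmb8, Psmb9 and Nlrc5. Of the 16581 symbols that a probe of the array carried, 6 were members, and 8 of its 45598 distinct probes belonged to them. No probe was named Nlrc5, so that gene was not analysed here. Rats were young (6 to 7 months) or aged (26 to 27 months), and aged rats were unimpaired (AU) or impaired (AI) by their water maze scores. Each received intermittent theta burst stimulation (iTBS), a patterned magnetic stimulation of the brain through a coil above the skull, or sham stimulation with the same coil far from the head, and tissue was taken 48 h later. All rats, sham included, were under isoflurane and dexmedetomidine, so no group was free of sedation. Sham stimulation was given to 4 young (Y_Sham), 4 aged-unimpaired (AU_Sham) and 4 aged-impaired (AI_Sham) animals, and iTBS to 4 young (Y_iTBS), 5 aged-unimpaired (AU_iTBS) and 3 aged-impaired (AI_iTBS) animals, with both regions of each. The study's methods name fewer aged rats than the labels do, and the labels were followed.

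Class I molecules show fragments of a cell's own proteins to CD8 T cells. The proteasome cuts the proteins, and Psmb8 and Psmb9 are catalytic subunits of its interferon-inducible form, the immunoproteasome. Tap1 and Tap2 form the transporter that carries the peptides into the endoplasmic reticulum. There Tapbp (tapasin) holds the transporter beside the heavy chain while a peptide is loaded, and B2m is the light chain that every classical class I molecule needs to reach the surface. Nlrc5 is a transcriptional activator of this gene group. In the brain the genes are best known in microglia and blood vessel cells, and in some neurons.

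In the RefSeq annotation of rat build GRCr8, Tap2, Psmb8, Tap1 and Psmb9 are neighbours on chromosome 20, between RT1-DOb and RT1-DMb of the class II region. Tapbp lies elsewhere on chromosome 20 and B2m on chromosome 3. Tap1 and Psmb9 lie head to head. The promoters of the 2 immunoproteasome subunits, whose signals varied together, are shown with those of Tapbp, which differed most firmly between regions, and B2m, the light chain. Each runs 5′ to 3′ from 250 bases before the start of the gene over its first 30 bases, and comes from RefSeq (GRCr8). Capitals mark letters that match an interferon response core (GAAANNGAA), a GAS element (TTCNNNGAA), the Y box (ATTGG) or the X2 box (TGACG), on either strand.
Psmb8 promoter, chr20:4657002-4657281, - strand: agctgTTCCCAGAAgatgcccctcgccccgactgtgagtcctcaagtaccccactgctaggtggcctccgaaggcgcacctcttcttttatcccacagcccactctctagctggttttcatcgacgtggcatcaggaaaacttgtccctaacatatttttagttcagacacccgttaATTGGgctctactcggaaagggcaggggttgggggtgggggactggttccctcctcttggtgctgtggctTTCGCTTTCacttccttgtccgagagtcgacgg
Psmb9 promoter, chr20:4668750-4669029, + strand: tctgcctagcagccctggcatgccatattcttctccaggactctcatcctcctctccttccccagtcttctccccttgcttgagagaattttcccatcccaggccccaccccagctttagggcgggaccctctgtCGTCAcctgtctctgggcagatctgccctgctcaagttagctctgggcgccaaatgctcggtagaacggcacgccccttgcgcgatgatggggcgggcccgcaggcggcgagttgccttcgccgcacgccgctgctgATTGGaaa
Tapbp promoter, chr20:4967848-4968127, - strand: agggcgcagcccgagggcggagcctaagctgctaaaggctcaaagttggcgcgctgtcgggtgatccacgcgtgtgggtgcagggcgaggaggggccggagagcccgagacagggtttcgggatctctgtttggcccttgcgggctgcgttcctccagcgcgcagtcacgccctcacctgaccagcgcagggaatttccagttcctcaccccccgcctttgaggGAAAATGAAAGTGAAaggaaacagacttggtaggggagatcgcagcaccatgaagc
B2m promoter, chr3:129549080-129549359, + strand: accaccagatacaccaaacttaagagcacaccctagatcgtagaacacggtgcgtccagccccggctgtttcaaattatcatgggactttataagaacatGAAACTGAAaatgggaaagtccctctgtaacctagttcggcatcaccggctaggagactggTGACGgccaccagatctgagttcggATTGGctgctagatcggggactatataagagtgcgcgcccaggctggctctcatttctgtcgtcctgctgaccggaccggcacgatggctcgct
Over windows of 250 bases before to 50 after the start, the interferon response core was in 5 of the 6 members (B2m, Tap1, Tap2, Tapbp and Psmb8) and in 9.71% of all 33469 promoters. Tapbp held 2 copies that overlap each other. The GAS element was found in Psmb8 among the members and in 8.87% of all promoters. The Y box was in B2m, Psmb8 and Psmb9 (37.5% of all promoters), and the X2 box in B2m and Psmb9 (21.2%). These are matches of letters in the windows, not measured binding.

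Signals are given as normalized log2 signal, on which 0 is the mean of an array. Levels of different probes cannot be set against each other. B2m, Tap2 (2 probes), Tapbp, Psmb8 and Psmb9 were well above background in all 24 animals of both regions, and none was saturated. The brighter Tap1 probe (probe 1) was well above background in 24 hippocampi and 22 cortices. The other Tap1 probe (probe 2) was so in 7 hippocampi and 3 cortices, so its values are mostly those of background and no direction is read from them. Between 59.3% and 69.7% of probes were well above background on an array. In 6 technical repeats of an animal and region, the median absolute difference from the first array was 0.05 for Psmb8, 0.06 for Psmb9 and B2m, 0.07 for Tapbp, 0.29 for Tap1 probe 1 and 0.61 for Tap1 probe 2. 1 more repeat, labelled AI_iTBS 2 cortex, was left out. Over the 1000 most variable probes its r with the first array of that label was -0.00858, and its r with the AI_Sham 2 cortex was 0.450. In whole tissue, fewer cells of a type and less RNA per cell cannot be told apart.

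**Figure D1:**
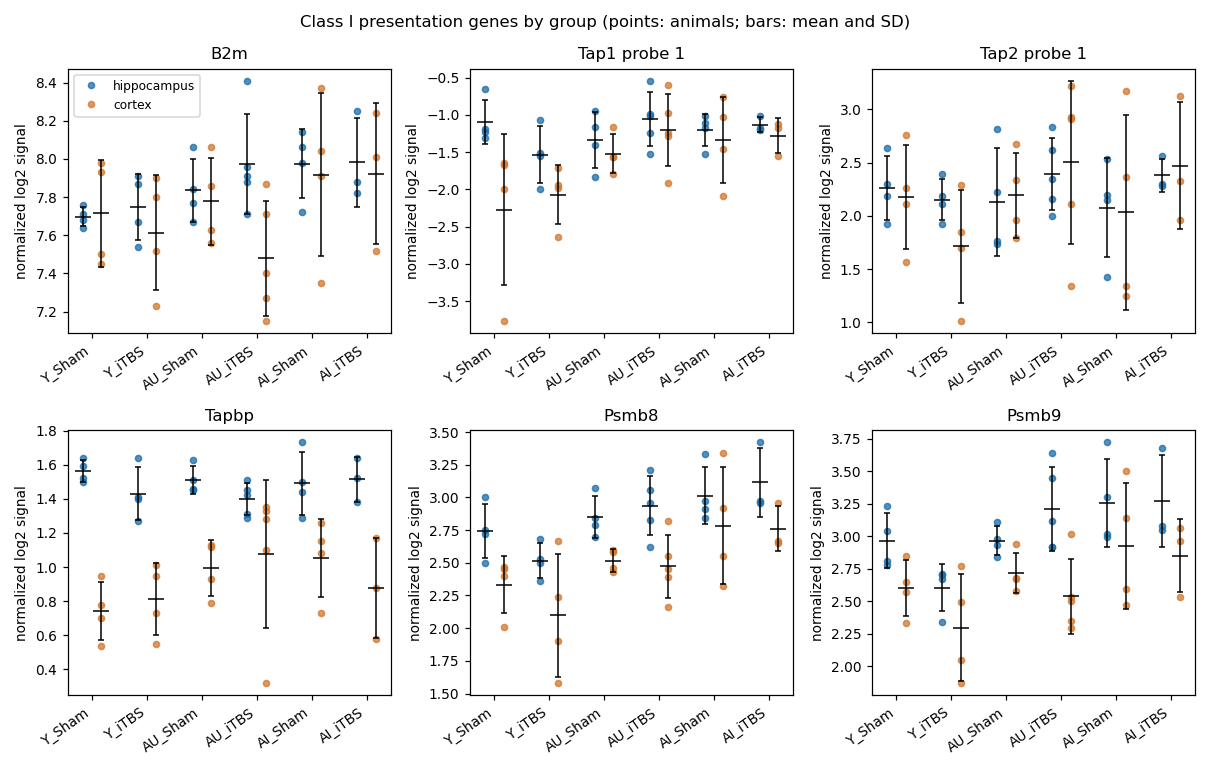
Normalized log2 signal of 6 member probes (y axis) in each animal (points) by group (x axis), hippocampus in blue and parietal cortex in orange, with the mean and SD of each group. Tapbp runs from 1.27 to 1.73 in hippocampus and from 0.32 to 1.35 in cortex.

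The arrays were scanned on 3 dates, and this moved with some members. Both regions of 15 animals were scanned on the first date and both regions of 9 later. All 6 groups had animals in each set, but the sets were not balanced between sham and iTBS. The later set held Y_Sham 1 and 2, Y_iTBS 1, AU_Sham 1, AU_iTBS 1, 2 and 3, AI_Sham 1 and AI_iTBS 1. With groups held constant, limma called 34.7% of 32608 probes between later and first scans in cortex, among them Tap2 and B2m. In cortex Tap2 probe 1 measured 1.80 ± 0.43 (SD, n = 15) in the first set and 2.82 ± 0.36 (SD, n = 9) in the later set, a difference of 0.99 ± 0.166 (SE, adjusted p = 2.14e-04). Tap2 probe 2 differed by 0.94 ± 0.182 (SE, adjusted p = 6.87e-04). B2m was lower in the later set by 0.42 on the log2 scale, at 7.44 ± 0.24 (SD, n = 9) against 7.89 ± 0.25 (SD, n = 15) (log2 difference -0.42, adjusted p = 0.00401). In hippocampus 28.1% of 32422 probes were called, but of the members only Tap1 probe 2 (adjusted p = 0.0499). The scan date is what the headers give, and whether labelling or hybridization also differed is not given in the sources used here.

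**Figure D2:**
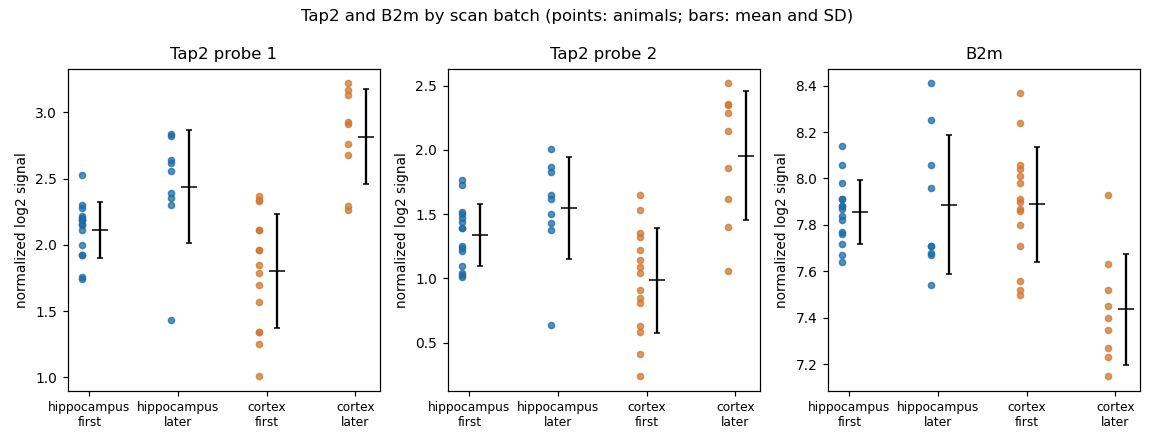
Normalized log2 signal (y axis) of both Tap2 probes and B2m in each animal, by region and by first or later scan date (x axis), with mean and SD. In cortex the later set is higher for Tap2 and lower for B2m, while the sets of hippocampi overlap widely.

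The comparison of regions, made within each animal, gave the members' clearest differences. Tapbp, Psmb8, Psmb9 and Tap1 (probe 1) were higher in hippocampus than in parietal cortex, by 1.29 to 1.47 fold, and B2m and Tap2 did not pass the test. Over all 24 animals limma called 5 of 8 member probes, against 49.5% of the 33725 probes tested. Of the 5, 4 were higher in hippocampus, and the fifth was Tap1 probe 2, from which no direction is read. In the 12 sham animals it called the same number, 5, against 35.9%. A share of 5 in 8 among members that are so often called across the array says little of the members as a group.

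Tapbp, the loading chaperone, had a lowest, median and highest signal of 1.27, 1.48 and 1.73 in hippocampus and of 0.32, 0.95 and 1.35 in cortex. The hippocampus was higher in 23 of 24 animals, with AU_iTBS 3 the exception at -0.04. The difference was 0.56 ± 0.0637 (SE, 95% interval 0.43 to 0.69, adjusted p = 2.62e-07). In sham animals alone it was 0.59 ± 0.0891 (SE, adjusted p = 1.90e-05), and it lost its call only among the later scans (0.53, adjusted p = 0.0554).

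Both immunoproteasome subunits were higher in hippocampus. Psmb8 ran from 2.36 through a median of 2.84 to 3.42 in hippocampus and from 1.58 through 2.46 to 3.34 in cortex. It was higher in the hippocampus of 23 of 24 animals, by 0.37 ± 0.0707 (SE, adjusted p = 1.98e-04). Psmb9 ran from 2.34 through 3.00 to 3.72 in hippocampus and from 1.87 through 2.58 to 3.50 in cortex, and was higher in the hippocampus of 21 of 24 animals, by 0.39 ± 0.0831 (SE, adjusted p = 5.48e-04). AI_Sham 4, whose cortex had the highest values of both genes, was the clearest exception (-0.50 and -0.52). Among first scans only, the Psmb9 difference was 0.19 (adjusted p = 0.103). Both genes were higher in hippocampus in each scan set, by more among later scans. Mean Psmb9 was 2.95 in hippocampus and 2.75 in cortex among first scans, and 3.20 and 2.46 among later scans. For Psmb8 these means were 2.79 and 2.54, and 2.95 and 2.38. The size of both differences thus moved with the scan set. In sham animals the differences were 0.32 (adjusted p = 0.0140) for Psmb8 and 0.31 (adjusted p = 0.0398) for Psmb9, and with the scan batch as a block 0.20 (adjusted p = 0.0956) and 0.13 (adjusted p = 0.310).

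Of the peptide transporter's subunits Tap1 passed and Tap2 did not, and the difference between them was not tested. Tap1 probe 1 ran from -2.00 through -1.18 to -0.54 in hippocampus and from -3.77 through -1.56 to -0.60 in cortex, higher in the hippocampus of 17 of 24 animals. Over all animals the difference was 0.39 ± 0.116 (SE, adjusted p = 0.00870), and with the slide as a random block 0.27 (adjusted p = 0.305). In young animals the means were -1.31 in hippocampus and -2.17 in cortex, and in aged animals -1.18 and -1.33. The change of the regional difference with age did not pass (limma adjusted p = 0.298). The cortices of Y_Sham 4 and Y_iTBS 4, where the probe was lowest, were not well above background. Tap2 probe 1 did not pass (0.05, 95% interval -0.21 to 0.32, adjusted p = 0.760). Within scan sets it took opposite signs, 0.29 among first scans (adjusted p = 0.0325) and -0.42 among later scans (adjusted p = 0.0695). The light chain B2m differed by 0.13 (95% interval -0.03 to 0.30, adjusted p = 0.181) over all animals, by -0.04 among first scans (adjusted p = 0.657) and by 0.42 among later scans (adjusted p = 0.0469). With quantile normalization the B2m difference was 0.23 and passed (adjusted p = 0.00417). For Tap2 and B2m no direction between regions is therefore given.

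**Figure D3:**
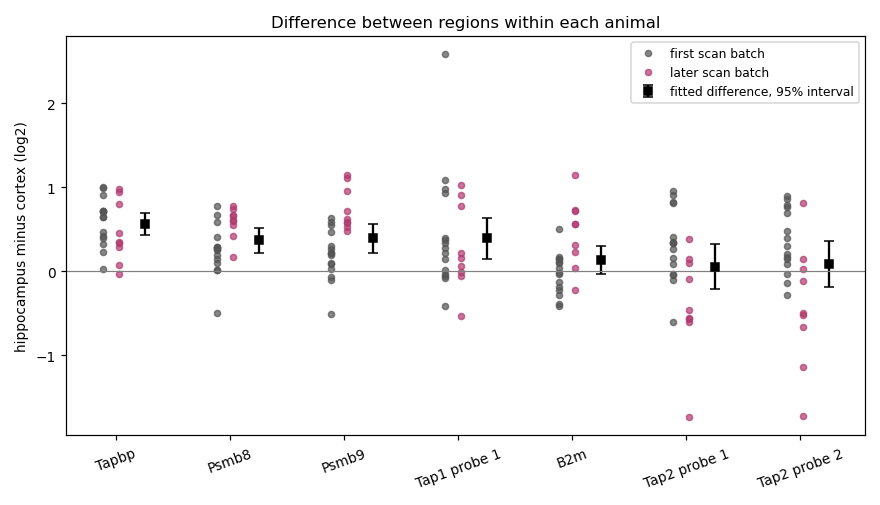
Hippocampus minus parietal cortex in normalized log2 signal (y axis) within each animal, for 7 member probes (x axis), with animals of the first scan date in grey and later dates in magenta. Black squares with bars are the fitted differences over all animals with 95% intervals, and those of Tapbp, Psmb8, Psmb9 and Tap1 probe 1 lie above 0.

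Other genes of the pathway were counted with 1 probe per gene, the brightest. Over all animals limma called 49.5% of the 33725 probes between regions, the share to set beside each count below. Of 31 tested genes of the class I heavy chain list, limma called 22 with more signal in hippocampus and 4 with more in cortex over all animals, with a median difference of 0.34 against 0.0192 over all probes. RT1-N2 (0.47) and RT1-CE13 (0.52) were higher in hippocampus, and RT1-M4 (-1.46) and RT1-M5 (-1.53) in cortex. These genes are near copies of each other, so probes can share signal. Of 20 other loading and peptide supply genes, 8 were higher and 3 lower, among them Pdia3, a partner of tapasin (0.49 ± 0.0609 SE, adjusted p = 9.93e-07), and Thop1, a cytosolic peptidase (0.35 ± 0.0467 SE, adjusted p = 2.10e-06). Of 27 regulators, 6 were higher and 1 lower. Markers of cell types and regions were counted in the same way. Of 18 microglia markers 9 were higher in hippocampus and none lower (median 0.18), of 12 oligodendrocyte markers 11 were higher and 1 lower, and of 13 choroid plexus markers 9 were higher and 1 lower (median 1.39). Of 12 hippocampus markers 10 were higher in hippocampus, and of 11 cortex markers 8 were higher in cortex. The part of these cells in the members' differences was not tested.

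With age, no member passed the test in either region, and over all animals Psmb8 and Psmb9 differed by 0.31 to 0.42, with more signal in the aged. These values pool sham and iTBS animals. In sham animals alone the differences in hippocampus were 0.19 for Psmb8 (95% interval -0.07 to 0.45) and 0.15 for Psmb9 (95% interval -0.19 to 0.48), and those in cortex 0.32 and 0.22. Over all animals limma called 0.512% of 32422 probes in hippocampus and 0.402% of 32608 in cortex, and 0 of 8 member probes in each, with 3 at an unadjusted p under 0.05 in each, against 13.3% of all probes in hippocampus and 14.3% in cortex. In hippocampus Psmb8 had a lowest, median and highest signal of 2.36, 2.61 and 3.00 in young and of 2.62, 2.96 and 3.42 in aged animals. The ranges overlapped, and 15 of 16 aged animals were above the young mean. The difference was 0.35 ± 0.0897 (SE, n = 16 and 8, limma adjusted p = 0.0982). It passed with the scan batch as a block (0.38, adjusted p = 0.0206), a fit in which AU_iTBS 3, the only hippocampus of its scan date, no longer counts. Within first scans it was 0.34 and within later scans 0.42. Psmb9 differed by 0.39 ± 0.115 (SE, n = 16 and 8, limma adjusted p = 0.166), and all 16 aged animals were above the young mean, whereas in sham animals 6 of 8 were above the mean of Y_Sham. B2m differed by 0.22 ± 0.0855 (SE, n = 16 and 8, limma adjusted p = 0.297). Tap1 probe 1, Tap2 and Tapbp lay between -0.02 and 0.13.

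In cortex the lowest, median and highest signals of Tap1 probe 1 were -3.77, -1.96 and -1.65 in young and -2.09, -1.26 and -0.60 in aged animals, and all 16 aged animals were above the young mean. The difference was 0.84 ± 0.235 (SE, n = 16 and 8, limma adjusted p = 0.146), and it ran from 0.25 to 0.94 over the 38 settings run. The probe was not well above background in Y_Sham 4 and Y_iTBS 4, so their values may be bounds. Psmb8 differed by 0.42 ± 0.134 (SE, n = 16 and 8, limma adjusted p = 0.203) and Psmb9 by 0.31 ± 0.140 (SE, n = 16 and 8, limma adjusted p = 0.327). In sham animals alone, limma called 0.00308% of probes in hippocampus and 0.104% in cortex and no member, and Tap1 probe 1 in cortex was nearest, at 0.85 (adjusted p = 0.453). The age difference of Tap1 probe 1 was smaller in hippocampus than in cortex by 0.71 on the log2 scale (log2 difference -0.71, adjusted p = 0.298), in a test that called 0.0237% of probes.

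Some class I heavy chains passed with age when sham and iTBS animals were pooled, and none did in sham animals alone. The shares to set beside the pooled counts below are 0.512% of all probes called in hippocampus and 0.402% in cortex. In hippocampus 4 of 29 tested were higher in aged animals, with RT1-A1 at 0.60 ± 0.102 (SE, adjusted p = 0.00638), RT1-A2 at 0.54 (adjusted p = 0.0141) and RT1-CE5 at 0.91 (adjusted p = 0.0144). In cortex 3 of 31 were higher, RT1-A1 (0.65, adjusted p = 0.0202), RT1-A3 (0.68, adjusted p = 0.0321) and RT1-A2 (0.59, adjusted p = 0.0412). The list's median difference was 0.18 in hippocampus and 0.51 in cortex, against -0.0106 and -0.0123 over all probes. In sham animals it was 0.07 and 0.30, RT1-A1 differed by 0.43 in hippocampus (adjusted p = 0.576) and by 0.69 in cortex (adjusted p = 0.222), and RT1-CE5 by 0.36 in hippocampus (adjusted p = 0.638). The other lists named here also had no called gene in sham animals, in either region. Of 27 regulators 1 was called in hippocampus, the interferon regulatory factor Irf7 (0.67, adjusted p = 0.0203), and none in cortex. None of 20 other loading genes was called in either region. Interferon-induced genes were called in 6 of 35 cases in hippocampus, among them Isg15 (0.81), Usp18 (0.75) and Oasl2 (0.56), and in 2 of 36 in cortex, Usp18 (1.00) and Oas1a (1.04). Class II genes were called in 5 of 9 cases in hippocampus, led by Cd74 (2.17) and RT1-Da (2.16), and in none of 10 in cortex. Of 18 microglia markers 5 were higher in aged hippocampus (median 0.31) and none was called in cortex (median 0.08). The mean level of the microglia list ran from 4.22 to 4.48 in young and from 4.39 to 4.92 in aged hippocampi. No T cell marker was called in either region, and the brightest probes of Cd2, Cd5, Cd27 and Cd8a were not well above background on any first array. Other lists moved in hippocampus without a called gene. There 13.3% of all probes were at an unadjusted p under 0.05. All 13 choroid plexus markers were higher in aged animals (median 0.36, and -0.01 in sham animals), as were 10 of 11 astrocyte markers (median 0.10, 4 at an unadjusted p under 0.05), and 7 of 8 meningeal markers were lower (median -0.38, 3 at an unadjusted p under 0.05). Their mean levels in young and aged hippocampi ran from -1.49 to 0.98 and from -1.21 to 2.73 for choroid plexus, from 6.58 to 6.93 and from 6.68 to 7.05 for astrocytes, and from 1.55 to 2.35 and from 1.16 to 3.51 for meninges. The part of these cells and of microglia in the members' values was not tested.

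After iTBS no member passed the test in either region. limma called 0 of 8 member probes in each iTBS comparison (young, aged, AU and AI), and 0 had an unadjusted p under 0.05. Over all probes it called 0% in young hippocampus, young cortex, aged hippocampus and aged cortex, and 0.00613% in AI cortex. The smallest unadjusted p of a member was 0.0602 in young hippocampus, for Tap1 probe 1, where 1471 of 32422 probes had an unadjusted p under 0.05.

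In young hippocampus the members lay mostly lower after iTBS. Of these animals Y_Sham 1, Y_Sham 2 and Y_iTBS 1 came from the later scans. Psmb9 measured 3.23, 2.81, 3.04 and 2.78 in the 4 Y_Sham animals and 2.67, 2.70, 2.71 and 2.34 in the 4 Y_iTBS animals. The groups did not overlap for this probe, 1 of the 8 of the members, as for 3.16% of all 32422 probes (1.57% with iTBS lower and 1.59% with iTBS higher). The difference of -0.36 had a 95% interval of -0.75 to 0.03 (limma adjusted p = 0.930). Tap1 probe 1 measured -0.65, -1.23, -1.31 and -1.19 in Y_Sham and -1.07, -1.51, -2.00 and -1.55 in Y_iTBS. Here Y_iTBS 1 lay among the sham animals, and the difference was -0.44 (95% interval -0.89 to 0.02, limma adjusted p = 0.930). Psmb8 differed by -0.22, Tapbp by -0.13, Tap2 by -0.11 and -0.39 on its 2 probes and B2m by 0.05. Markers of the choroid plexus moved in the same comparison. All 13 were lower in Y_iTBS (median -1.03, none called), and their mean level ran from -0.47 to 0.98 in Y_Sham and from -1.49 to -0.41 in Y_iTBS. Their part in the members' values was not tested. Of the pathway's other genes the smallest p-values were those of RT1-CE10 (-0.51), Socs1, an inhibitor of interferon signaling (-0.91), and Blmh, a cytosolic peptidase (0.23), each at an adjusted p of 0.930.

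In aged hippocampus Psmb9 measured 3.11, 2.93, 2.98 and 2.84 in AU_Sham and 3.45, 3.64, 2.92, 2.92 and 3.12 in AU_iTBS. It measured 3.30, 3.02, 3.72 and 2.99 in AI_Sham and 3.68, 3.05 and 3.08 in AI_iTBS, so the groups overlapped in both. The aged difference was 0.13 (95% interval -0.15 to 0.41, limma adjusted p = 0.978), and the other members ran from -0.05 to 0.28. The aged minus the young iTBS effect in hippocampus was 0.61 for Tap1 probe 1 (0.23 to 0.77 over the 38 settings run) and 0.49 for Psmb9 (0.30 to 0.66), and above 0 for all 8 member probes. Both were at an unadjusted p under 0.05, as were 4.31% of all probes, and at an adjusted p of 0.799, as was RT1-CE10 (0.82). In cortex the member differences ran from -0.46 to 0.20 in young and from -0.15 to 0.39 in aged animals, with an adjusted p of 1.000 for each. Scan sets were not balanced between sham and iTBS, and Tap2 and B2m moved with them in cortex. Meningeal markers were lower after iTBS in cortex, with medians of -0.96 in young and -1.23 in aged animals, and none was called. In the aged 7 of 8 were at an unadjusted p under 0.05, against 2.92% of all probes. Cognitive status gave no call either. Between AI and AU animals limma called 0.00308% of probes in hippocampus, 0% in cortex and no member, and, Tap1 probe 2 aside, the largest values were 0.29 for B2m and 0.28 for Psmb8 in cortex.

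**Figure D4:**
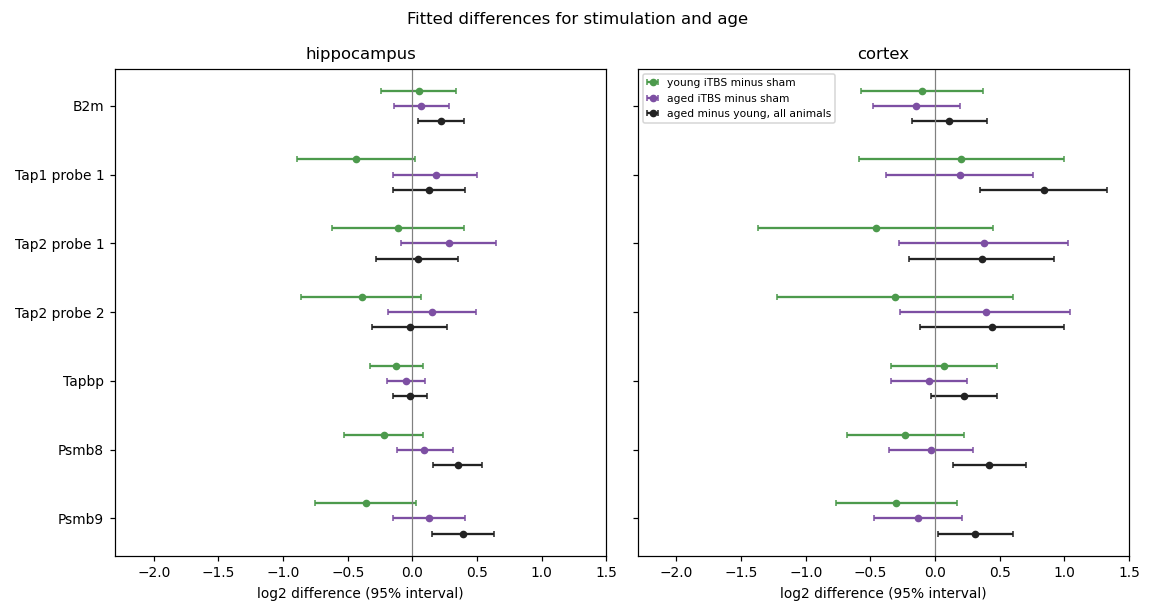
Fitted log2 differences (x axis) with 95% intervals for 7 member probes (y axis), for iTBS in young animals (green), iTBS in aged animals (purple) and age over all animals (black), in each region. All iTBS intervals cross 0. Before adjustment over all probes, the age intervals of Psmb8 and Psmb9 lie above 0 in both regions. So do those of B2m in hippocampus and of Tap1 probe 1 in cortex.

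Across animals, members did not vary as 1 block. Each gene entered as the mean of its tested probes, so the Tap1 values include probe 2, which was mostly at background. Of 30 pairs (15 in each region, n = 24 animals), 12 passed at an adjusted permutation p under 0.05 with Pearson's r. The firmest was that of the immunoproteasome subunits. Psmb8 and Psmb9 correlated at r = 0.937 and rho = 0.939 in hippocampus and at r = 0.937 and rho = 0.901 in cortex (permutation p = 1.00e-05 for each, the smallest that 100000 permutations can give, adjusted 1.00e-04 for r and 1.50e-04 for rho). Without the 2 animals farthest from the median, r was 0.904 and 0.883. Within first scans it was 0.932 and 0.975, and within the last scans 0.933 and 0.837. On deviations from group means it was 0.908 and 0.931. B2m followed Psmb9 at r = 0.729 in hippocampus (rho = 0.589, permutation p = 6.00e-05 and 0.00307, adjusted 4.50e-04 and 0.0153) and at r = 0.722 in cortex (rho = 0.704, permutation p = 8.00e-05 and 2.40e-04, adjusted 4.80e-04 and 0.00180). Without the 2 farthest animals these were 0.577 and 0.641, and within first scans 0.623 and 0.717. Tapbp and Psmb9 correlated at r = -0.0739 in hippocampus (rho = 0.0287, permutation p = 0.732 and 0.895, adjusted 0.784 and 0.924). In cortex this pair reached r = 0.402 (rho = 0.411, permutation p = 0.0523 and 0.0466, adjusted 0.118 and 0.0932). Tap1 and Psmb8 correlated at r = 0.730 in cortex (rho = 0.688, permutation p = 1.00e-05 and 2.30e-04, adjusted 1.00e-04 and 0.00180) and at 0.285 in hippocampus. Of the 30 pairs 23 had a positive r, and 29 did within first scans. Tap2 and B2m in cortex reached r = -0.551 (rho = -0.460, permutation p = 0.00575 and 0.0251, adjusted 0.0172 and 0.0627), but r was 0.0394 within first scans and -0.215 within the last.

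**Figure D5:**
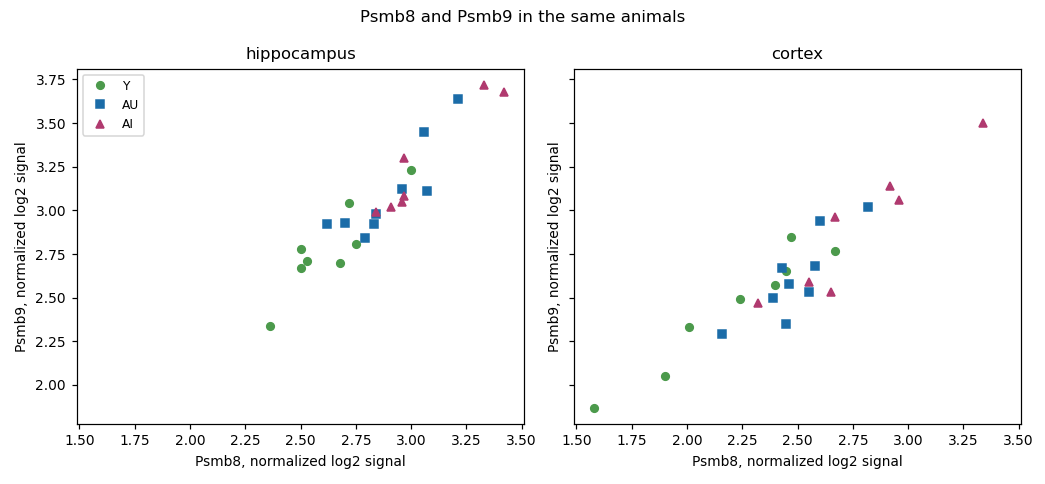
Psmb9 (y axis) against Psmb8 (x axis), both as normalized log2 signal, in each animal, with young (Y, circles), aged-unimpaired (AU, squares) and aged-impaired (AI, triangles) rats. The points follow 1 line in each region, with r of 0.937 in both.

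Across the 2 regions of an animal, Psmb8 in hippocampus and in cortex correlated at r = 0.548 (rho = 0.520, n = 24, permutation p = 0.00552 and 0.00975, adjusted over 6 genes 0.0331 and 0.0585). It was 0.661 within first scans and 0.782 within later scans, and 0.521 without the 2 farthest animals. Psmb9 reached 0.368 (rho = 0.405, n = 24, permutation p = 0.0768 and 0.0496, adjusted 0.230 and 0.0993), with 0.650 and 0.727 within scan sets. The other 4 genes ran from -0.0808 to 0.316. Genes outside the member list were ranked by the lower of the 2 regional correlations of deviations from group means, over 24 animals and 16651 named probes. By this measure Psmb8 and Psmb9 themselves correlated at 0.908 and 0.931. Among genes other than members, the most like Psmb9 were Tspo (0.909 in hippocampus and 0.905 in cortex), Slc22a18 and Nt5dc2. For Psmb8 they were Tspo (0.810 and 0.851), C2 and Gbp2. For B2m they were H2aj (0.923 and 0.867), Ddah2 and Bcap31, for Tap1 Mvp, Igtp and Prodh, for Tap2 Cpxm1, Pde8a and Glrb, and for Tapbp Plxnb2, Mvb12a and Nfkb2. These were chosen as the highest of many and share arrays and scan dates with the members.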

How the data were processed

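The authors hybridized dye-labeled RNA to Agilent rat arrays and read them with Feature Extraction 12.0.3.1. Deposited scanner files give processed signal intensity for 62976 features, and a deposited table gives z-scores by the authors' program DIANE (a score per feature and array), which lay within 0.00500 of those computed here. Copies of a probe were averaged without flagged spots. The log2 signal was made a z-score per array, then brought back to log2 units with the arrays' average SD, 4.08. Repeats were averaged with the first array, except 1 that matched another animal, and 1 of 56 arrays, whose labels disagree, entered no group. Array number limits the precision. A probe was tested where well above background in at least 3 of 24 animals. limma 3.58.1 (R 4.3.3) fitted 6 group means, with Benjamini-Hochberg adjustment over all probes of a region, checked on simulated data. Regions were compared within animals. Permutations used numpy 2.4.6. Replicate numbers name different animals in different groups. All p-values are two-sided. Every member probe was described in every comparison used. Of other lists, up to 10 called genes were eligible, or the 3 with the smallest p, and examples were taken from these. Members and lists were chosen with earlier results of these data known. Alternatives were other scalings, background corrections and filters, scan and slide blocks, and leaving out animals.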

Additional observations from a re-analysis of the deposited data

Results flagged for a closer look

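Of 80 groups of 4 or 5 animals tested, 4 had an animal far from the others, and chance flags about 1 in 20. Psmb9 in the hippocampus of Y_iTBS 4 was 2.34, with the others from 2.67 to 2.71. Tap1 probe 1 in the cortex of Y_Sham 4 was -3.77, not well above background, with the others from -2.00 to -1.65. Tapbp in the cortex of AU_iTBS 4 was 0.32, with the others from 1.10 to 1.35. Psmb8 in the cortex of Y_Sham 2 was 2.01, with the others from 2.40 to 2.47.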

How the results depend on the processing

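The 5 member probes called between regions over all animals stayed at 5 when any 1 animal was left out (5 to 5), and fell to 3 with the slide as a random block. Tapbp and Psmb8 passed in all 38 settings run, Psmb9 in 37 and Tap1 probe 1 in 36. Tap1 probe 2 passed in 35 of the 37 in which it was tested. The 5 called in sham animals became 3 with 75th percentile scaling, 2 with quantile normalization, 3 with normexp background, 2 with the scan batch as a block, 1 with the slide as a random block, 1 among first scans and 0 among later scans (chosen after seeing the data), and ran from 2 to 5 when 1 animal was left out: 3 without Y_Sham 1 or Y_Sham 2, and 2 without AI_Sham 2. Without the replicate block, that is unpaired, 4 were called in sham animals and 5 in all. For age in hippocampus, 1 member was called with the scan batch as a block and 0 otherwise. In the other comparisons 0 were called in every setting, and a replicate block, whose numbers pair no animals between groups, also gave 0. A rule rebuilt here from the study's stated selection criteria, which need not match its own counts, called 0 members for iTBS, of 59 probes in young hippocampus. Correlated pairs fell from 12 to 2 within the last scans, where 8 or 9 animals remained. No member value with an unadjusted p under 0.05 in the fit to all animals described above changed sign in another setting. Of all 184 member values, 42 changed sign among first scans, 43 among later scans, 26 with normexp background and 16 with 75th percentile scaling. The cause of these changes was not tested. Signal near background limits Tap1 probe 2.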

Other observations

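The array whose title and description name different animals measured 7.84 for B2m, -1.07 and -2.50 for the Tap1 probes, 2.09 and 1.11 for the Tap2 probes, 1.36 for Tapbp, 2.78 for Psmb8 and 2.97 for Psmb9. All 8 member probes were well above background on it, Tap1 probe 2 included.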
